A study of Mus musculus with 45 samples.

Results

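Proteins that are secreted or sit in membranes fold in the endoplasmic reticulum (ER), and cells watch that compartment through the unfolded protein response. Levels of 34 genes of this response and of the overlapping integrated stress response were followed in mice given tamoxifen or its sunflower oil vehicle, in brain cortex, hippocampus and retina. The genes were taken by exact symbol from a list of ER chaperones, disulfide isomerases, stress sensors, transcription factors, ATF4 targets and ER-associated degradation genes. All 34 were found among the 36172 genes of each tissue's table. Of these, 33 passed the filter on low counts in all 3 tissues. The 34th, Xbp1, was listed at 0 in all 43 libraries used, so it has no level and no test here. How the counts were made is not known here, so these values do not show that Xbp1 RNA was absent.

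The mice were 3 months old and of both sexes. The study asked whether tamoxifen, a drug used to switch on Cre recombinase, has lasting or sex-dependent effects on RNA of the central nervous system. Females gave 4 tamoxifen and 3 vehicle libraries in each tissue, and males gave 3 and 4 in the cortex, 4 and 3 in the hippocampus and 4 and 4 in the retina. The tissues came from the same 15 animals, named here by their numbers. The sources used here state no strain, genotype or Cre transgene, and no dose, route or timing of tamoxifen.

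The cortex libraries held 10259768 to 22375163 counts, the hippocampus libraries 31154309 to 44153244 and the retina libraries 9143811 to 18253874. A cortex library of male tamoxifen animal 962 held 4567 counts and was left out, and hippocampus tissue of 965 was not analysed here. A set of 4 retina markers summed to between 13530 and 16010 CPM in retina libraries and to at most 47.2 CPM in brain libraries. CPM here is counts per 1000000 counts of the library, with library sizes scaled by TMM over all 43 libraries. The 6 hippocampus markers summed to at least 660.7 CPM in the hippocampus and at most 323.5 CPM in the cortex. The cortex neuron list did not set the cortex apart, with sums of 1954 to 2216 CPM there, 1610 to 2107 CPM in the hippocampus and 1930 to 2171 CPM in the retina. Ttr, a transcript that choroid plexus makes in abundance, stood over 5 times its tissue median in the cortex of 958, 960 and 965 and the hippocampus of 951, 958 and 962. The sum of 10 lens markers did so in the retina of 951, 959 and 962. In bulk tissue, fewer cells of a type and less RNA per cell cannot be told apart.

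As background, the unfolded protein response has a trio of sensors in the ER membrane. IRE1 (Ern1) splices the mRNA of the factor XBP1, ATF6 is cleaved into a transcription factor, and PERK (Eif2ak3) phosphorylates the translation factor eIF2. Phosphorylated eIF2 lowers protein synthesis in general while the factor ATF4 is translated more, and other eIF2 kinases feed into that same arm, which is why it is called integrated. The main chaperone, BiP, is encoded by Hspa5, holds the sensors inactive while the ER is at rest and is itself a target of the response. Neurons and photoreceptors make membrane proteins in quantity, which fold in the ER.

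Chaperone genes of the response are known for an ER stress element in their promoters, which ATF6 and the factor NF-Y recognise, and ATF4 targets for a C/EBP-ATF element. The promoter letters are shown as a description alone. Genes that hold the ER stress element include some that vary with Hspa5 across animals further on, and also Syvn1, which ran against it in the cortex and retina. Of the 34 genes, 30 had a promoter in the RefSeq table (GRCm38.p6), in 32 windows of 250 bases before to 50 bases after a start site, and both strands were searched. The ER stress element was searched as CCAAT, 9 bases of any kind and CCACG, and 9 of the 30 genes held it: Hspa5, Hsp90b1 (with 2 matches), Calr, Canx, Pdia6, Dnajc3, Creld2, Derl3 and Syvn1. The share was 0.137% of the 27025 genes with a promoter there, and 0.119% of all 32851 windows. The matches began at position -65 relative to the start site in Hspa5, -98 in Pdia6, -126 in Creld2 and -162 in Calr, and at -212 and -107 in Hsp90b1. Capitals mark the match, which reads CGTGG, 9 bases and ATTGG where it lies on the other strand. The stretches are chr2:34771970-34772069 (plus strand) for Hspa5, chr10:86705523-86705666 (minus strand) for Hsp90b1, chr8:84847054-84847113 (minus strand) for Calr, chr12:17266471-17266530 (plus strand) for Pdia6 and chr15:88819500-88819559 (plus strand) for Creld2.
Hspa5: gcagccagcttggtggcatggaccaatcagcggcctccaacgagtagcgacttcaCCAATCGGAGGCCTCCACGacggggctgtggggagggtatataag
Hsp90b1: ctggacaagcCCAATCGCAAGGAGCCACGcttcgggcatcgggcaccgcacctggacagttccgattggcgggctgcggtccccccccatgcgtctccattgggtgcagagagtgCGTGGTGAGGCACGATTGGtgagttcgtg
Calr: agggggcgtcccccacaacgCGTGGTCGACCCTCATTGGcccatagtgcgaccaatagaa
Pdia6: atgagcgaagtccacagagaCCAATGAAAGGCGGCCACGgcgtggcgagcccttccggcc
Creld2: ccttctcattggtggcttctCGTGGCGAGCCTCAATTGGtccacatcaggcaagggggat

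A short form of the element (ATTGG, 1 base, CCACG) was present in Herpud1 and Dnajb11, and in 0.0444% of all genes with a promoter. The unfolded protein response element TGACGTGG was in 0 of the 30 genes and in 0.714% of all genes with a promoter. The C/EBP-ATF element, searched as TGATGNAA, was present in Asns, Chac1, Atf3, Trib3 and Herpud1, and in 4.51% of all genes with a promoter. Its match began at -23 in Asns, -193 in Chac1 and -110 in Atf3. Such a match describes the letters, and it is neither a binding site nor a cause of any value given here. The next lines show chr8:94386353-94386412 (plus strand) for Herpud1, with the short element in capitals, and chr6:7693210-7693269 (minus strand) for Asns, chr2:119351023-119351082 (plus strand) for Chac1 and chr1:191183410-191183469 (minus strand) for Atf3, with the C/EBP-ATF element in capitals (TTGCATCA is the other strand's reading).
Herpud1: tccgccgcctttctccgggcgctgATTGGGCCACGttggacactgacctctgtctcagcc
Asns: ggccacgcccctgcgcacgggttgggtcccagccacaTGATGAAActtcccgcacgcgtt
Chac1: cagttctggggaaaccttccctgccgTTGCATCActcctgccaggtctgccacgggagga
Atf3: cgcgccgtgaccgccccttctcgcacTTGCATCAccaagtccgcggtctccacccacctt

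Several ER chaperones were among the more abundant transcripts of all 3 tissues, while Trib3 and Derl3 stood lowest of the 33 genes. The stress-induced factors were spread out. Per kilobase of exon, Atf4 stood between the 94.7th and 98.5th percentile of the genes tested, and Atf3 between the 15th and 34.6th. Per kilobase of exon, Calr (calreticulin, a lectin chaperone) stood at 165 CPM per kb in the cortex, 160 for hippocampus and 154 for retina. Hsp90b1 (GRP94, the ER member of the Hsp90 family) stood at 158, 123 and 181 CPM per kb in the same order, and Canx (calnexin) at 92.5, 107 and 106. Hspa5 stood at 97.1, 73.9 and 88.5 CPM per kb, between the 94.5th and 96.4th percentile of the genes tested. At the low end, the pseudokinase gene Trib3, which feeds back on ATF4, stood at 0.300 CPM per kb in the cortex and 0.199 in the hippocampus, and Derl3 (a derlin of ER-associated degradation) at 0.541 and 0.583. The median of the 33 genes was 16.9, 17.3 and 17.9 CPM per kb in the same order, or the 71.1st, 71.9th and 73.5th percentile of all genes tested. The spread between libraries of a group was small: the median SD on the log2(CPM + 0.5) scale was 0.128, 0.127 and 0.124, beside 0.136, 0.138 and 0.153 over all genes.

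**Figure D1:**
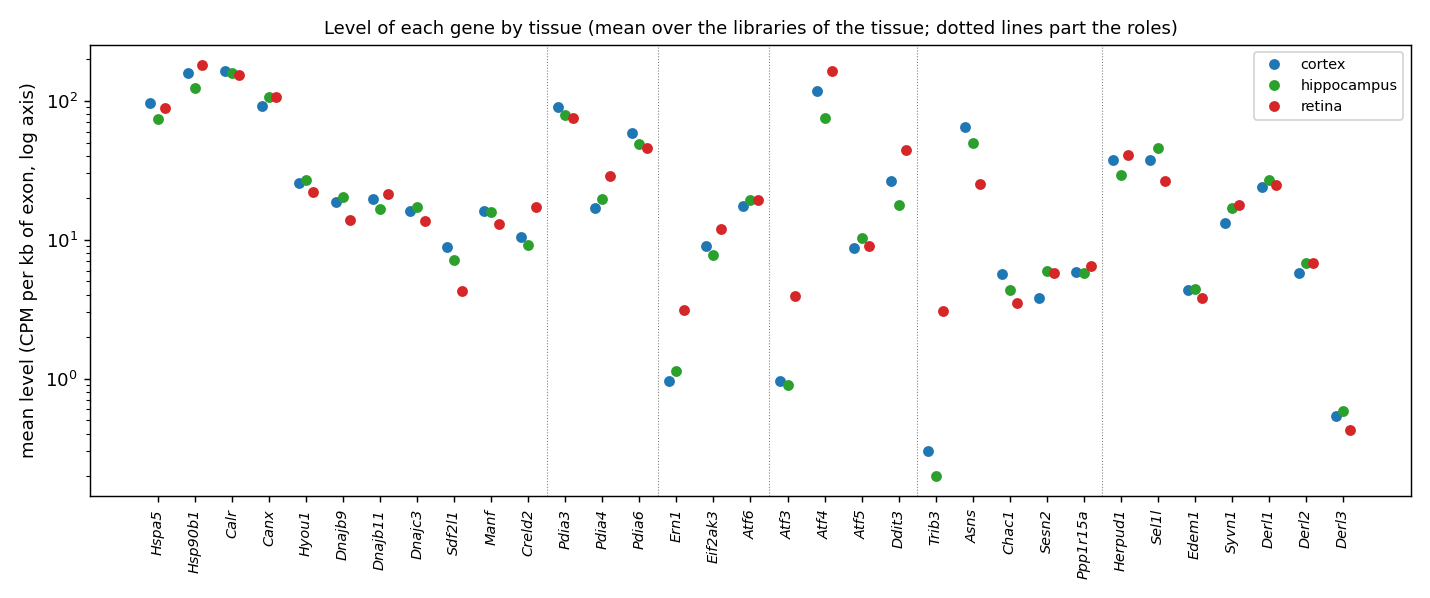
Mean level of the 33 measured genes in CPM per kilobase of exon (log axis) in the cortex, hippocampus and retina; dotted lines part the roles from chaperones to degradation genes. Calr, Hsp90b1, Canx, Hspa5, Pdia3 and Atf4 form the upper end in each tissue, and Trib3 and Derl3 are the lowest pair.

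Of the 33 genes, Trib3, Atf3 and Ern1 differed most between the retina and either brain tissue, and Atf4, Sesn2 and Trib3 between the brain tissues. A joint fit of the 43 libraries called a level different at an adjusted p under 0.05 and at least 2-fold. Between retina and cortex, 3 of the 33 genes were higher in the retina (20.3% of 15900 genes were) and 2 were lower (21.7% of genes). Between retina and hippocampus, 5 were higher in the retina (21.7% of genes) and 0 were lower (21.9% of genes), with edgeR as with DESeq2, although 13 of the 33 were lower at an adjusted p under 0.05 without the fold limit. Between hippocampus and cortex, 0 were higher (5.24% of genes) and 0 were lower (7.19% of genes) by 2-fold, again with both tools, while 12 were higher and 14 lower by less. The shares of these genes past 2-fold were thus below those of all genes in each of the 6 directions. Between hippocampus and cortex the shares of all genes were small, so 0 of 33 is near them. All genes were not matched to the list in level, and the list's median level was at the 71.1st to 73.5th percentile. The list's median absolute log2 difference was 0.33 between retina and cortex, beside 0.80 for all genes, 0.34 between retina and hippocampus, beside 0.83, and 0.22 between hippocampus and cortex, beside 0.30. Tissue, library depth and any difference in handling between tissues cannot be told apart.

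Trib3 (gene ID 228775, chromosome 2, 152337425 to 152344060 on GRCm38) differed most between tissues. In the retina it lay between 5.01 and 7.08 CPM in males and between 5.01 and 7.22 CPM in females, and no brain library exceeded 1.60 CPM. Its log2 difference was 3.49 between retina and cortex and 4.08 between retina and hippocampus. The counts behind it were 2 to 27 per cortex library, 4 to 32 per hippocampus library and 53 to 120 per retina library. Atf3, a stress-induced repressor, ranged from 6.39 to 10.8 CPM in the retina, from 1.002 to 3.23 CPM in the cortex and from 1.37 to 2.48 CPM in the hippocampus. It was higher in the retina by 2.01 against the cortex and by 2.12 against the hippocampus (log2). Ern1 ranged from 22.3 to 32.1 CPM in the retina and never passed 10.9 CPM in the brain, with log2 differences of 1.68 and 1.45. None of these retina libraries overlapped a brain library.

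Atf4, the central factor of the integrated stress response, had its lowest level in the hippocampus. It lay between 265.7 and 298.4 CPM in the retina, between 190.0 and 227.9 in the cortex and between 116.6 and 160.6 in the hippocampus, so that the ranges of the tissues did not overlap. The log2 difference was 1.13 between retina and hippocampus, 0.48 between retina and cortex and -0.65 between hippocampus and cortex. Ddit3 (CHOP, a factor induced by ATF4) followed the same order, with 33.2 to 45.7 CPM in the retina, 18.5 to 27.6 in the cortex and 12.9 to 19.5 in the hippocampus. The asparagine synthetase gene Asns, a target of ATF4, had another order: 130 to 148.3 CPM in the cortex, 101.9 to 116.4 in the hippocampus and 44.1 to 58.4 in the retina. Its log2 difference was -1.37 between retina and cortex and -0.997 between retina and hippocampus, the latter just inside the 2-fold limit. Leaving out 1 of 11 animals (all but 953, 962, 963 and 965) carried it past the limit. Sdf2l1, a cofactor of BiP, was the other gene past 2-fold lower in the retina than in the cortex (-1.05).

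Between brain tissues, Sesn2, whose product senses leucine, was higher in the hippocampus than in the cortex by 0.63 (log2), with 16.2 to 24.2 CPM against 11.9 to 15.7. Trib3 was lower there by 0.60, on the low counts given above. Hspa5 itself was lower in the hippocampus than in the cortex (-0.39, adjusted p = 2.28e-08) and than in the retina, by less than 2-fold. Fitting the animals as a replicate block, since each gave all tissues, left the Hspa5 difference at -0.39.

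**Figure D2:**
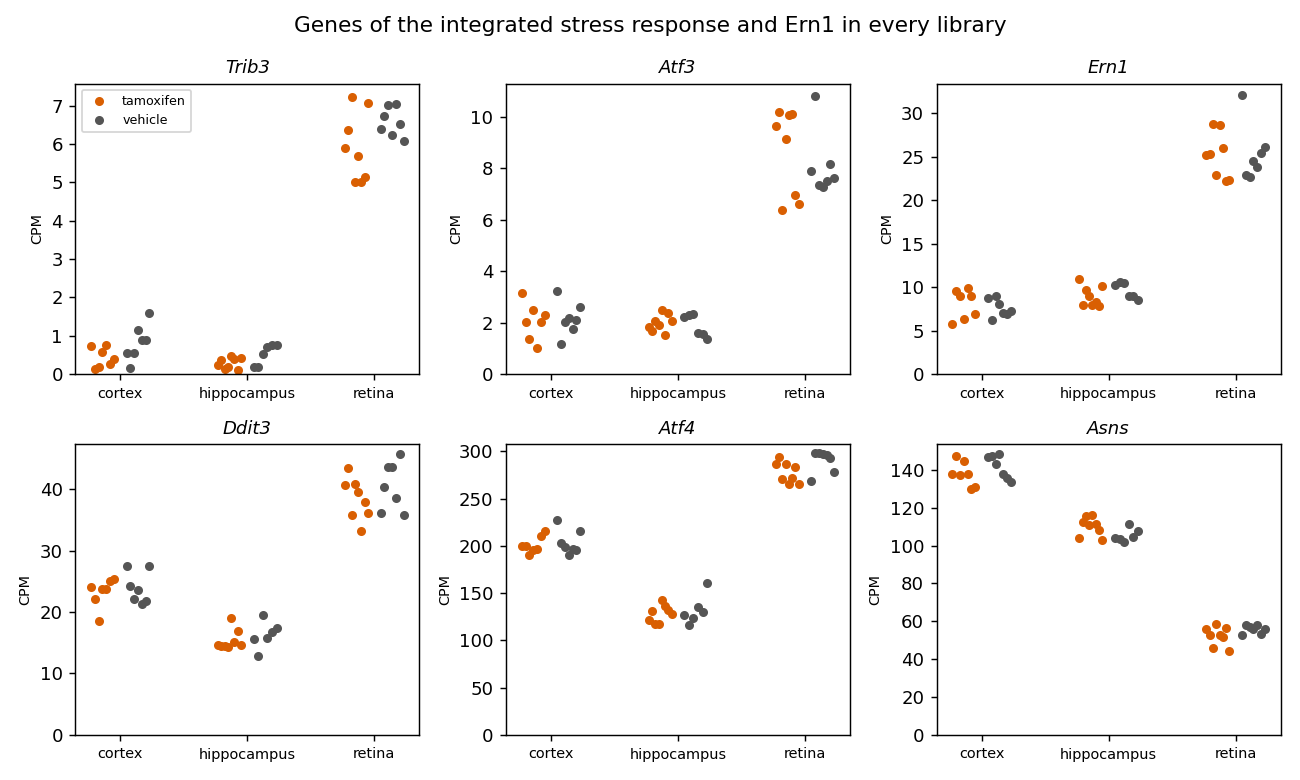
CPM of Trib3, Atf3, Ern1, Ddit3, Atf4 and Asns in each library of the cortex, hippocampus and retina, with tamoxifen and vehicle libraries side by side; axes start at 0. Trib3, Atf3 and Ern1 stand apart in the retina, Atf4 and Ddit3 are lowest in the hippocampus, and Asns is lowest in the retina.

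With tamoxifen, most of the genes had a slightly lower estimate than with vehicle, and few differences passed a test across all genes. Averaged over the sexes, 30 of 33 log2 fold changes were below 0 in cortex, 25 in hippocampus and 23 in retina. The median was -0.07, -0.07 and -0.04 in that order, where the median over all genes was 0.01, 0.004 and 0.003. Estimates above 0 made up 9.09% of the list in cortex (52.7% of all genes), 24.2% in hippocampus (51.6%) and 30.3% in retina (51.3%). By sex, they made up 12.1% in cortex females (52% of all genes) and 42.4% in cortex males (51.2%). The list's median was -0.12 in cortex females and -0.02 in cortex males. In the hippocampus they made up 24.2% in each sex (52.5% and 49.3% of all genes). In the retina they made up 30.3% in females (50.2%) and 33.3% in males (51.3%). Tissues of one animal are not independent, and neither are genes that vary together across animals, so these counts are not separate lines of evidence. Without the libraries rich in Ttr, the hippocampal median was -0.03 and 23 were below 0.

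In the cortex, edgeR's quasi-likelihood test called 0 of the 33 genes with the sexes averaged, where it called 89 of 14680 genes, or 0.606%. At an unadjusted p under 0.05 were 10 of the 33 (30.3%, beside 9.39% of all genes), each lower with tamoxifen: Hspa5, Calr, Dnajc3, Sdf2l1, Manf, Hyou1, Pdia3, Pdia4, Pdia6 and Derl3. DESeq2 called 1, Hspa5 (adjusted p = 0.0211), and 1.51% of genes. Without animal 960 edgeR called 1, Dnajc3 (-0.28, adjusted p = 0.0168). By role, 11 of 11 chaperones and 3 of 3 isomerases had estimates below 0, with medians of -0.10 and -0.13, while the 5 ATF4 targets had a median of -0.005. Many of these chaperones and isomerases varied together across cortex animals, as given below, so such counts are not of independent genes. In the hippocampus edgeR called 0 of 33 (0.0652% of genes), with 6 at an unadjusted p under 0.05 (18.2%, beside 7.84% of all genes), each lower. There DESeq2 called 0 of the list and 0.444% of genes. In the retina edgeR called 0 of 33 (0.0474% of genes), with Hspa5 and Calr at an unadjusted p under 0.05 (6.06%, beside 7.14% of all genes). In the retina DESeq2 called 1, Hspa5 (adjusted p = 0.00874), and 0.452% of genes.

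**Figure D3:**
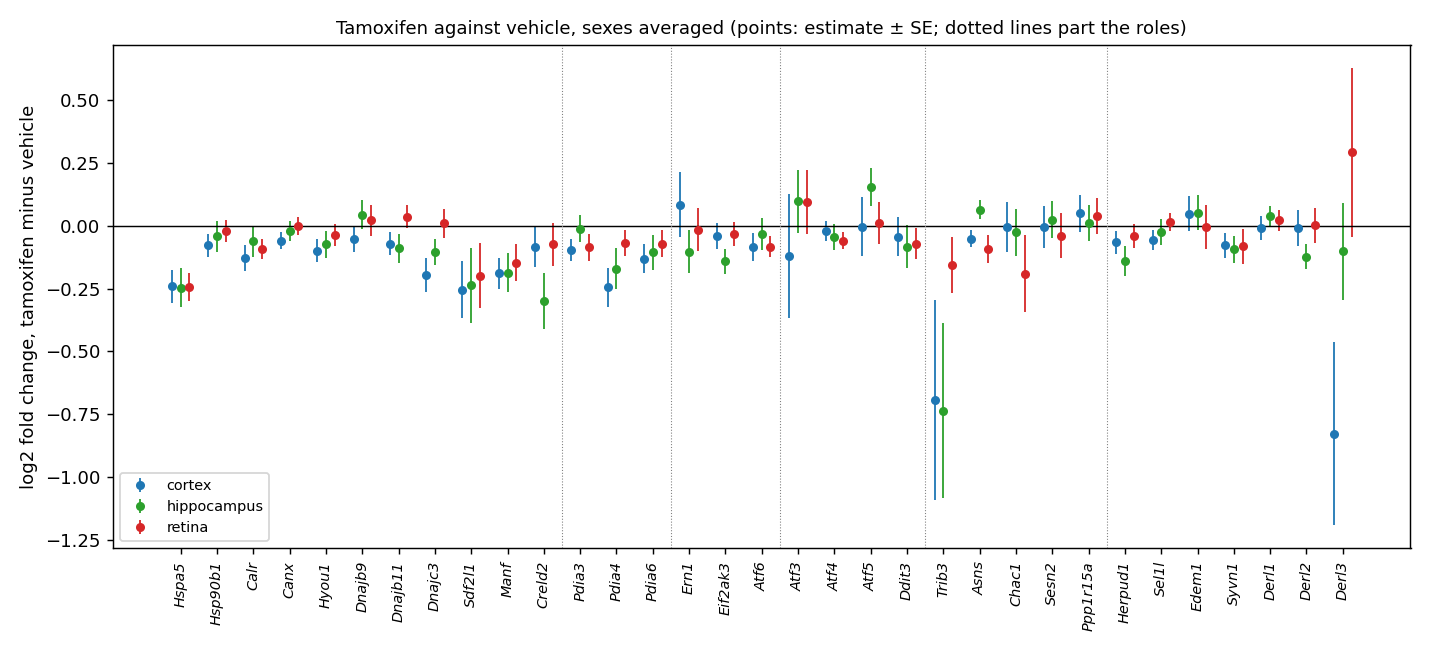
Log2 fold change of tamoxifen against vehicle, averaged over the sexes, for the 33 genes in each tissue (points are estimates, bars 1 SE), ordered by role. Most points lie just below 0, Hspa5 is near -0.24 in each tissue, and the wide bars belong to Trib3, Derl3 and Atf3, which have low counts.

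Hspa5 (gene ID 14828, chromosome 2, 34772090 to 34776529 on GRCm38) had the smallest p of the list in each tissue. In the cortex of females it measured 310.9, 294.8, 293.3 and 303.7 CPM with tamoxifen and 376.0, 398.5 and 443.0 CPM with vehicle. These female groups did not overlap, with means of 301 ± 8.22 CPM (SD, n = 4) and 406 ± 34.1 CPM (SD, n = 3). In the cortex of males it measured 348.4, 413.2 and 345.4 CPM with tamoxifen and 300.5, 437.2, 380.4 and 410.2 CPM with vehicle, and the male groups overlapped widely. The female fold change was -0.43 ± 0.09 (log2, SE; adjusted p = 0.0401), and no other gene of the list was called in any tamoxifen contrast of edgeR. Among all genes, 0.375% were called in cortex females. The male estimate was -0.05 ± 0.09, and the average -0.24 ± 0.07 (adjusted p = 0.133).

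The fold change in cortex females was below 0 without each animal in turn (-0.49 to -0.37, 14 of 14 fits), but the call did not hold in each. It ended when animal 951, 952, 953, 954, 955, 957, 958 or 965 was left out, with an adjusted p between 0.0513 and 0.354 (without 955 and without 958), without the libraries rich in Ttr (-0.37, adjusted p = 0.271), and with the near-empty library included (adjusted p = 0.131). Without animal 963, whose cortex had the lowest Hspa5 of the male vehicle group, the sex-averaged fall was called (-0.29, adjusted p = 0.00615). In the female tamoxifen group the summed retina markers were 41.9 to 47.2 CPM in animals 952, 953 and 954 and 29.7 CPM in 951, and 24.6 to 34.6 CPM in the vehicle females. The 10 choroid plexus markers summed to between 32.2 and 3138 CPM in tamoxifen cortex and between 41.7 and 1283 CPM in vehicle cortex. The part of these transcripts in the result was not tested.

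In the hippocampus Hspa5 measured 257.9, 259.8, 216.3 and 225.7 CPM in tamoxifen females and 285.3, 270.5 and 349.0 CPM in vehicle females. Males measured 283.1, 272.0, 245.2 and 273.1 CPM with tamoxifen and 251.7, 345.1 and 304.2 CPM with vehicle. The female groups did not overlap and the male groups did. The sex-averaged fold change was -0.25 ± 0.08 (log2, SE), with an unadjusted p of 0.0054 and an adjusted p of 0.414.

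In the retina Hspa5 measured 320.8, 302.2, 247.7 and 311.8 CPM in tamoxifen females and 302.7, 348.5 and 393.1 CPM in vehicle females, which overlapped. Males measured 316.3, 312.1, 326.8 and 295.3 CPM with tamoxifen and 357.2, 395.4, 385.2 and 350.5 CPM with vehicle, which did not overlap. The sex-averaged fold change was -0.24 ± 0.06 (adjusted p = 0.150), with -0.25 ± 0.08 in females and -0.24 ± 0.08 in males. Vehicle animals 958 and 964 had the highest Hspa5 of their groups in all 3 tissues.

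**Figure D4:**
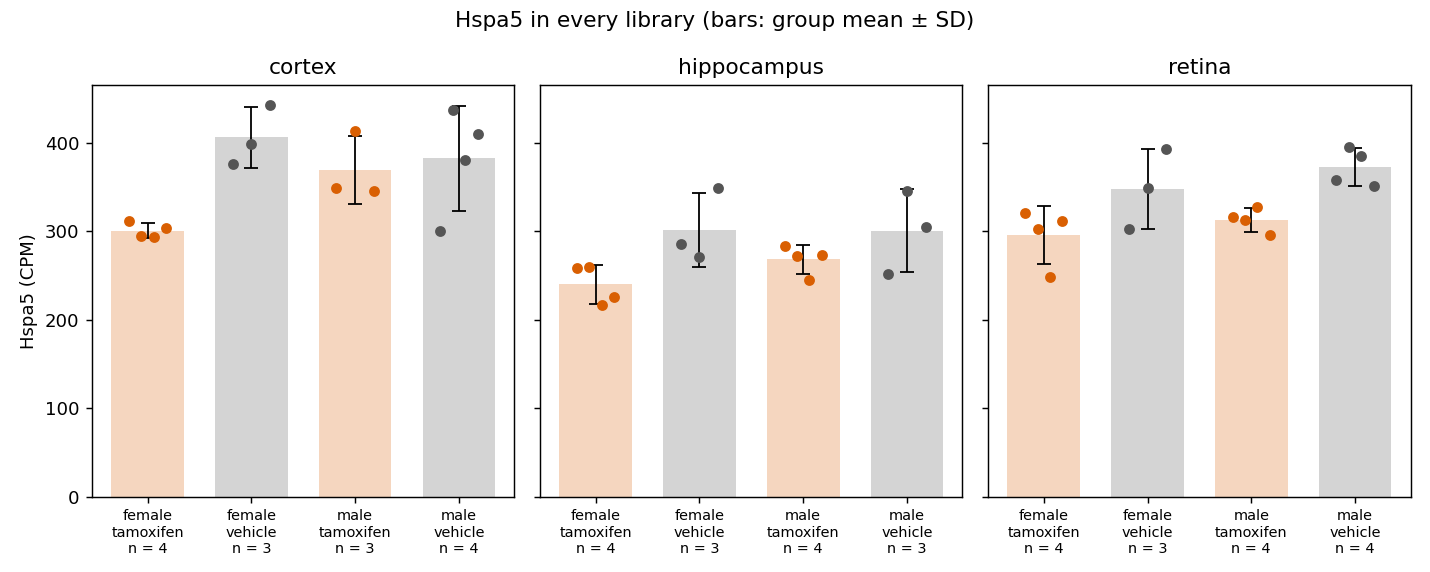
Hspa5 in CPM in each library (points), with group means (bars) and SD (error bars), by tissue, sex and treatment. Tamoxifen means lie below vehicle means of the same sex and tissue, with groups that do not overlap in cortex and hippocampus females and in retina males.

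Since the same animals gave each tissue, the deviations from the tissue mean were averaged per animal over the 3 tissues in 13 animals and tested with limma, a test chosen after the values above were seen. It called 0 of the 33 genes (0.176% of 15900 genes). At an unadjusted p under 0.05 were 7 of the 33, each lower, beside 10.6% of all genes. Below 0 were 28 of 33, where 53.1% of all genes were above 0. The animal means of Hspa5 were -0.12, -0.17, -0.35 and -0.20 (log2) in tamoxifen females and -0.004, 0.07 and 0.30 in vehicle females. In males they were -0.02, 0.03 and -0.08 with tamoxifen and -0.09, 0.29 and 0.14 with vehicle, so that female groups were apart and male groups overlapped. The fold change over tissues was -0.23 ± 0.07 (unadjusted p = 0.00598, adjusted p = 0.263). Trib3 had the smallest p (-0.34 ± 0.09, adjusted p = 0.190), with -0.57 ± 0.13 in males and -0.10 ± 0.12 in females. These means used log2(CPM + 0.5). Trib3 did not exceed 1.60 CPM in the brain, so the added 0.5 makes its change smaller.

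None of the other chaperones and isomerases passed edgeR's test with the sexes averaged. Estimates above 0 were those of 0 of 11 chaperones in cortex, 1 in hippocampus and 3 in retina, and of 0 of 3 isomerases in each. In cortex males alone they were those of 3 of 11 chaperones and 2 of 3 isomerases. Pdia4, a disulfide isomerase, measured 33.4, 30.4, 32.3 and 32.5 CPM in the cortex of tamoxifen females and 39.6, 44.2 and 47.2 CPM in vehicle females, with no overlap. In cortex males it measured 36.1, 50.1 and 40.9 CPM with tamoxifen and 35.5, 47.3, 48.0 and 45.4 CPM with vehicle, where the tamoxifen group held the highest value. The female estimate of Pdia4 was -0.44 ± 0.11 (adjusted p = 0.127), which DESeq2 called (adjusted p = 0.0209) and edgeR called without animal 960 (adjusted p = 0.0451). Its sex-averaged fold change in the cortex was -0.25 ± 0.08 (adjusted p = 0.245), and it was -0.17 ± 0.08 in the hippocampus and -0.07 ± 0.05 in the retina.

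Manf, a secreted ER protein with neurotrophic activity, measured 34.2, 37.5, 36.0 and 33.97 CPM in cortex tamoxifen females and 39.9, 42.2 and 50.0 CPM in vehicle females, again apart. In males it measured 36.7, 40.0 and 38.9 CPM with tamoxifen and 35.5, 44.1, 41.9 and 40.2 CPM with vehicle. In the retina Manf measured 35.4, 29.2, 27.9 and 29.0 CPM in tamoxifen females, 34.1, 33.5 and 34.8 in vehicle females, 33.7, 26.1, 30.8 and 31.0 in tamoxifen males and 27.4, 37.3, 35.9 and 32.6 in vehicle males, and both sexes overlapped. The sex-averaged estimates of Manf were -0.19 ± 0.06 in cortex (adjusted p = 0.256), -0.19 ± 0.08 in hippocampus (adjusted p = 0.575) and -0.15 ± 0.07 in retina (adjusted p = 0.735). Calr, second in the retina, measured 329.4, 356.4, 288.9 and 329.7 CPM in tamoxifen females, 328.6, 345.1 and 348.9 in vehicle females, 335.7, 304.3, 345.5 and 318.1 in tamoxifen males and 355.4, 368.1, 364.6 and 331.9 in vehicle males. Both sexes overlapped, and the estimate was -0.09 ± 0.04 (adjusted p = 0.657). Sdf2l1 had estimates of -0.25 ± 0.11, -0.24 ± 0.15 and -0.20 ± 0.13 in cortex, hippocampus and retina, and the co-chaperone gene Dnajc3 of -0.20 ± 0.07, -0.10 ± 0.05 and 0.01 ± 0.06. The isomerases Pdia3 and Pdia6 lay between -0.13 and -0.01 in every tissue. Hsp90b1 had estimates of -0.08 ± 0.05, -0.04 ± 0.06 and -0.02 ± 0.05 in cortex, hippocampus and retina.

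In the hippocampus the next smallest p-values belonged to the sensor Eif2ak3 and to Creld2, a secreted ER stress gene. Eif2ak3 measured 35.3, 38.0, 36.7 and 37.5 CPM in tamoxifen females against 39.5, 41.1 and 39.7 in vehicle females, and 32.1, 39.8, 35.5 and 32.7 in tamoxifen males against 39.0, 39.4 and 39.0 in vehicle males. All but 1 of the 8 tamoxifen libraries, male animal 960, lay below every vehicle library of their sex. Eif2ak3 was picked for its small p, so this order restates that choice and is no separate evidence. Its estimate was -0.14 ± 0.05, with an adjusted p of 0.486. Creld2 measured 12.3, 9.65, 9.51 and 11.1 CPM in tamoxifen females, 11.5, 11.5 and 17.9 in vehicle females, 13.7, 12.2, 10.01 and 11.2 in tamoxifen males and 12.7, 14.2 and 15.1 in vehicle males. Its groups overlapped in both sexes, and the estimate was -0.30 ± 0.11 (adjusted p = 0.523).

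None of the transcription factors and ATF4 targets passed the tamoxifen test. Below 0 were 4 of 4 factors and 4 of 5 targets in the cortex, 2 of 4 and 2 of 5 in the hippocampus, and 2 of 4 and 4 of 5 in the retina. Atf4 itself had estimates of -0.02 ± 0.04, -0.04 ± 0.05 and -0.06 ± 0.03 in cortex, hippocampus and retina, Ddit3 of -0.04 ± 0.08, -0.08 ± 0.09 and -0.07 ± 0.06, and Asns of -0.05 ± 0.03, 0.06 ± 0.04 and -0.09 ± 0.06. Their adjusted p-values were at least 0.711. Sesn2 lay between -0.04 and 0.02, and Ppp1r15a (GADD34, which directs the dephosphorylation of eIF2) between 0.01 and 0.05. Chac1 had estimates of -0.03 ± 0.09 in the hippocampus and -0.19 ± 0.15 in the retina, and Atf3 of -0.12 ± 0.25, 0.10 ± 0.13 and 0.09 ± 0.13 in the 3 tissues. The sensor Ern1 lay between -0.10 and 0.08. Trib3 had the widest estimates in the brain, -0.69 ± 0.40 in the cortex and -0.74 ± 0.35 in the hippocampus, with adjusted p of 0.649 and 0.639.

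By sex, the larger Trib3 estimates were those of males, none of which passed. In the cortex Trib3 measured 0.766, 0.268 and 0.385 CPM in tamoxifen males and 1.16, 0.884, 0.895 and 1.60 CPM in vehicle males. In the hippocampus it measured 0.478, 0.381, 0.112 and 0.427 CPM in tamoxifen males and 0.706, 0.754 and 0.765 CPM in vehicle males. Male groups did not overlap in either tissue, with estimates of -1.28 ± 0.50 (adjusted p = 0.613) and -1.09 ± 0.45 (adjusted p = 0.821). Females measured 0.721, 0.140, 0.182 and 0.564 CPM with tamoxifen and 0.538, 0.167 and 0.557 CPM with vehicle in the cortex, which overlapped. The difference between the sexes in this effect did not pass in any tissue, and counts of this size leave wide errors.

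None of the degradation genes passed edgeR's test for tamoxifen. Herpud1, which ties ubiquitin ligases to the ER membrane, had a range of 61.9 to 76.8 CPM (median 70.2) with tamoxifen and of 69.1 to 78.8 CPM (median 74.7) with vehicle in the cortex. Its estimates were -0.07 ± 0.04, -0.14 ± 0.06 and -0.04 ± 0.05 in cortex, hippocampus and retina. Sel1l, Edem1, Derl1 and Syvn1 had estimates between -0.09 and 0.05 in every tissue, and Derl2 had -0.12 ± 0.05 in the hippocampus. Derl3, with 4 to 37 counts per cortex library, had -0.83 ± 0.37 in the cortex and 0.29 ± 0.34 in the retina. The remaining genes, Canx, Dnajb9, Dnajb11, Hyou1, Atf5 and Atf6, had sex-averaged estimates between -0.10 and 0.16, with adjusted p of at least 0.508.

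Neither males nor females gave further calls. In males, edgeR called 0 of 33 in cortex (0.0272% of genes), 0 in hippocampus (0% of genes) and 0 in retina (0% of genes). DESeq2 called 0 in each (0.358%, 0.1% and 0.0406% of genes). At an unadjusted p under 0.05 in males were 1, 3 and 1 of the 33 (3.03%, 9.09% and 3.03%, beside 6.82%, 5.73% and 3.99% of all genes). In females edgeR called 0 in the hippocampus (0.013% of genes) and 0 in the retina (0.0406%), and DESeq2 called 0 in both (0.162% and 0.237%). At an unadjusted p under 0.05 in females were 12 of 33 in the cortex, each lower with tamoxifen (36.4%, beside 8.5% of all genes). In the hippocampus 8 of 33 were (24.2%, beside 5.5% of all genes) and in the retina 2 (6.06%, beside 6.37%). DESeq2 called 2 genes of the list in cortex females, Hspa5 and Pdia4, and 0.799% of all genes. The effect differed between the sexes for 0 of 33 genes in each tissue by edgeR (0% of genes in each). DESeq2 also called 0 of the list in each, with 0.0478% of genes in cortex and 0% in hippocampus and retina. In the cortex, 7 of the 33 had an unadjusted p under 0.05 for that difference, all with a less negative effect in males (21.2%, beside 5.5% of all genes), and the smallest adjusted p was 0.726. In the hippocampus and retina that number was 1 and 1 (3.03% in each, beside 3.02% and 3.37% of all genes). A test of whether the effect differed between tissues called 0 of the 33 genes (0.0126% of genes), by edgeR and DESeq2.

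In the hippocampus some of the genes differed by sex. Females were animals 951 to 958 and males 959 to 966, so sex and the order of the animals cannot be told apart. The cortex neuron markers summed to 1610 to 1949 CPM in hippocampus females and 1927 to 2107 CPM in males. Red cell markers summed to 18.82 to 83.3 and 73.74 to 138.1 CPM, and hippocampus markers to 660.7 to 746.7 and 672.6 to 806.7 CPM. The part of such differences in these values was not tested. Of the 33 genes, 6 differed between males and females there, or 18.2%, close to the 17.7% of all 15339 genes. Atf5, a relative of Atf4, was higher in males by 0.40 ± 0.08 (adjusted p = 0.00487), with means of 23.9 ± 1.02 and 22.6 ± 2.42 CPM in tamoxifen and vehicle males and 19.2 ± 2.44 and 16.3 ± 1.58 CPM in females (SD, n = 4, 3, 4 and 3). Chac1, a glutathione-degrading enzyme induced by ATF4, was higher by 0.44 ± 0.10, Atf4 by 0.19 ± 0.05 and the ubiquitin ligase gene Syvn1 by 0.17 ± 0.05. Lower in males were the co-chaperones Dnajb9 (-0.21 ± 0.06) and Dnajc3 (-0.21 ± 0.05). In the cortex and retina 0 of 33 differed by edgeR (0.0817% and 0.149% of genes) or by DESeq2 (0.273% and 0.914% of genes). At an unadjusted p under 0.05 were 2 and 4 of the 33 (6.06% and 12.1%, beside 8.6% and 13.1% of all genes). Without the 3 hippocampus libraries rich in Ttr, 13 of the 33 were called, where 26.2% of all genes were.

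Hspa5 varied with Hsp90b1 and Manf from animal to animal within the groups of cortex and hippocampus, and no relation of Hspa5 passed in the retina. For this, group means were removed from log2(CPM + 0.5), and 18 relations were tested by permutation with two-sided p-values adjusted over them. The permutations ran over all libraries of a tissue and made no allowance for the degrees of freedom used by the removed group means. The permutation p-values are therefore too small, and calls near the threshold are not firm. In the cortex Hspa5 and Hsp90b1 had Pearson's r = 0.955 (permutation p = 1e-05, the smallest that the permutations can give; adjusted p = 0.00018) and Spearman's rho = 0.921 (permutation p = 3e-05, adjusted p = 0.00054) over 14 libraries. Without the 2 libraries farthest from the median of Hspa5 (animals 963 and 964), r was 0.873. In the hippocampus that r was 0.734 (permutation p = 0.00233, adjusted p = 0.00839) with rho = 0.745 (permutation p = 0.0034, adjusted p = 0.0204), and 0.745 without 963 and 958. In the retina it was 0.538 (permutation p = 0.0382, adjusted p = 0.0695) with rho = 0.543 (permutation p = 0.0393, adjusted p = 0.101), and 0.312 without 953 and 955, so it did not pass there.

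Hspa5 and Manf had r = 0.754 in the cortex (permutation p = 0.00184, adjusted p = 0.00828; rho = 0.666, adjusted p = 0.0513) and 0.847 in the hippocampus (permutation p = 0.00012, adjusted p = 0.00108; rho = 0.815, adjusted p = 0.00702). Without the 2 farthest libraries these r were 0.554 and 0.756, and in the retina r was 0.426 (permutation p = 0.112, adjusted p = 0.183). Hspa5 and Sdf2l1 had r = 0.694, 0.613 and 0.541 in the 3 tissues, with rho of 0.499, 0.565 and 0.446 that did not pass. The first 2 of these r passed by permutation (adjusted p = 0.0258 and 0.0468), but not firmly, since the permutation p-values are too small. Of the relations within the ATF4 arm, Asns and Trib3 in the retina had r = -0.769 (permutation p = 0.00105, adjusted p = 0.0063), but rho was -0.504 (adjusted p = 0.118). Without animals 953 and 962, the 2 farthest from the median of Asns, r was -0.423. Leaving them out also narrows the range of Asns, so it does not tell what the relation rested on. The call for Asns and Trib3 is not firm, since rho did not pass. Atf4 and Asns in the retina had r = 0.588 (permutation p = 0.0208, adjusted p = 0.0468) and rho = 0.589 (adjusted p = 0.0863). Without 955 and 953 that r was 0.402. The call for Atf4 and Asns is likewise not firm, since the permutation p-values are too small. The other 7 relations of Asns had an adjusted p of at least 0.362 for r.

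Across the list as a whole, the median r with Hspa5 was 0.272 in cortex, 0.256 in hippocampus and 0.413 in retina, beside -0.001, -0.019 and 0.076 over all genes. These r rest on 14, 14 and 15 libraries that share normalisation and dissection, and they are given as a description. The genes most like Hspa5 in the cortex were Hsp90b1, Pdia4 (0.874), Pdia6 (0.842) and Pdia3 (0.829). In the hippocampus they were Pdia4 (0.949), Pdia6 (0.940), Calr (0.931) and Manf. In the retina Pdia3 (0.928), Pdia6 (0.815), Atf4 (0.782) and Atf6 (0.768) led, while Pdia4 had r = 0.048. Among all genes tested in the retina, these r stood at the percentiles 100, 98.2, 97.0, 96.3 and 48.2 in that order. Hsp90b1, at r = 0.538, stood at the 81.8th percentile there, so an r of a given size set a gene less apart than in the brain tissues. The 3 isomerases in the cortex and hippocampus all stood at or above the 99.8th percentile of genes. Among chaperones, Dnajb9 had r of 0.130, 0.113 and 0.191 in cortex, hippocampus and retina, Canx had -0.145 in the hippocampus and Creld2 had -0.208 in the retina. Asns ran the other way in the cortex (-0.666) and with Hspa5 in the retina (0.711), and Syvn1 ran against it in the cortex (-0.546) and retina (-0.801).

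**Figure D5:**
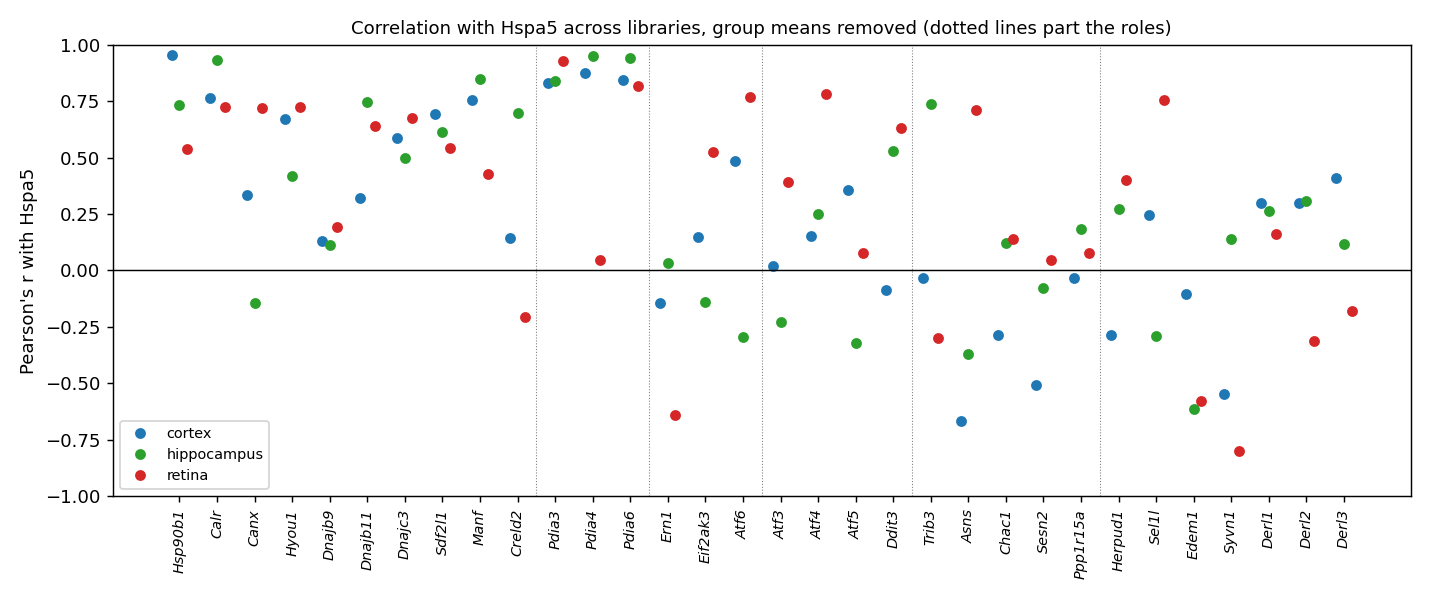
Pearson's r with Hspa5 across 14 cortex, 14 hippocampus and 15 retina libraries after group means were removed, for the other 32 genes in order of role. Most chaperones and isomerases lie above 0.5 in each tissue, and the sensors, ATF4 targets and degradation genes scatter to both sides of 0. In the retina some of the latter lie far from 0, such as Atf6 (0.768), Sel1l (0.755), Asns (0.711) and Syvn1 (-0.801).

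Genes next to the response in the secretory pathway and in protein quality control were read from the same fits. In the cortex, with sexes averaged, 1 of 18 other ER folding and oxidation genes passed, Dnajc1, an ER membrane co-chaperone of BiP, with a fall of -0.38 ± 0.08 (log2, SE; adjusted p = 0.0248). Of 33 other ATF4 targets 1 passed, the alanine transaminase gene Gpt2, at -0.19 ± 0.04 (adjusted p = 0.0466), and in females alone at -0.31 ± 0.06 (adjusted p = 0.0258). None of 14 translocon and signal peptidase genes, 16 other degradation genes, 18 other sensors and regulators or 18 heat shock genes passed in the cortex. At an unadjusted p under 0.05 were 3, 2, 0 and 3 of them, beside 9.39% of all genes. None of these 6 lists had a call by edgeR with the sexes averaged in the hippocampus or retina. At an unadjusted p under 0.05 were 3 and 5 of the ATF4 targets and at most 2 genes of each other list. Of all genes, 7.84% and 7.14% were. Of the cytosolic and mitochondrial heat shock genes, 3 of 18 had estimates above 0 in cortex, 8 in hippocampus and 3 in retina (52.7%, 51.6% and 51.3% of all genes), with medians of -0.05, -0.005 and -0.05. Between the sexes in the hippocampus, 7 of the 33 other ATF4 targets were higher in males and 1 was lower, among them Phgdh, the first enzyme of serine synthesis (0.31 ± 0.05), and Ddit4, an inhibitor of mTORC1 (0.35 ± 0.07). Of the 18 folding genes 1 was higher, the prolyl isomerase gene Fkbp2 (0.61 ± 0.10), and 3 were lower, and of the 16 degradation genes 2 were higher and 5 lower. Of 14 translocon genes, 18 other sensors and 18 heat shock genes, 1 was higher and 1 lower in each list. These counts stand beside the 17.7% of all genes that differed by sex there, where sex ran with the order of the animals.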

How the data were processed

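RNA was sequenced from cortex, hippocampus and retina, with extraction by AllPrep kits and libraries by a TruSeq RNA kit per the labels' protocols. The authors deposited expected counts per gene, unscaled, made on RefSeq gene models per the file headers. GRCm38, mm10 and DESeq are named, with no role, in the submitters' processing notes. For the aligner, the counting program and strand use the sources used here give nothing, so overlapping and near-identical genes can share reads. Deposited values were rounded to whole counts.

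Each tissue was fitted with edgeR 4.0.16 in R 4.3.3: filterByExpr (minimum count 10, minimum total 15), TMM scaling, 4 group means and quasi-likelihood tests, with Benjamini-Hochberg adjustment over all genes tested and a threshold of 0.05. A joint fit of 43 libraries with 12 group means gave levels across tissues, and animal means were tested with limma 3.58.1. Exon lengths per kb are from GENCODE M21, matched by symbol and chromosome. Scripts were tested on simulated data. Replicates are separate animals, and the lowest chi-square per gene between libraries of a group was 3.05. Totals per library, given in the report, set the precision, which is lowest for genes of a few counts.

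The members and the gene lists were chosen with earlier results of these data known. Fully described were each gene called for tamoxifen, the 3 smallest p-values per tissue, 1 gene per role, and the 3 largest differences per pair of tissues. Genes picked for a call or a small p come from these same data. Groups of theirs that do not overlap therefore restate the choice and are no separate evidence. From the neighbouring lists, up to 2 called genes per list and tissue are named. Of 120 such list genes found in the tables, 1, Vimp, was listed at 0 in every library, which, as for Xbp1, does not show that its RNA was absent. The animal numbers pair libraries between tissues, because each animal gave all tissues. The correlation across genes of deviations from group means had a median of 0.093 between hippocampus and cortex, 0.048 between retina and cortex and -0.027 between retina and hippocampus. Alternatives were RLE scaling, no filter on low counts, DESeq2 1.42.0, leaving out libraries rich in transcripts of another tissue, adding the near-empty library, leaving out each animal, and the replicate block. Correlations used scipy 1.17.1 with 100000 permutations. Some of the retina markers are not reported here and were left out of the marker sums.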

Additional observations from a re-analysis of the deposited data

Results flagged for a closer look

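Within groups of 4 libraries, 4 values of named genes lay far from the other 3 by Dixon's test, of 98 groups examined, where chance flags about 1 in 20. Calr was at 314.8 CPM in the cortex of vehicle male 963, below the 381.5 to 394.9 CPM of the other vehicle males. Manf was at 35.4 CPM in the retina of tamoxifen female 951, above 27.9 to 29.2 CPM in the others. Pdia4 was at 73.3 CPM in the retina of tamoxifen male 959, above 67.1 to 67.9 CPM. Sesn2 was at 14.6 CPM in the retina of tamoxifen male 960, below 21.5 to 22.8 CPM. The retinas of 951 and 959 were also rich in lens transcripts, with 10 of 10 lens markers detected and sums of 77.7 and 327.3 CPM, beside 2.14 to 31.0 CPM in the other tamoxifen retinas, and their part in these values was not tested.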

How the results depend on the processing

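DESeq2 called 1 gene of the list in the cortex and 1 in the retina with the sexes averaged, and 2 in cortex females, where edgeR called 0, 0 and 1. Over all genes it called 178 in cortex, 60 in hippocampus and 59 in retina (edgeR 89, 10 and 7), and 22 for an effect that differed between tissues (edgeR 2). With no filter on low counts, 1 gene of the list passed in the cortex, 15 of all genes passed in the retina, and 1 gene of the list was at least 2-fold lower in the retina than in the hippocampus. Without the libraries rich in transcripts of another tissue, 0 genes of the list passed in cortex females, 33 of all genes in the cortex and 0 in the hippocampus, and 13 of the list differed by sex in the hippocampus, as did 26.2% of all genes. With the near-empty library, 0 of the list passed in cortex females. Animal means over all 15 animals gave 71 genes. The cause of these changes was not tested.

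Leaving out 1 animal at a time gave 31 to 97 genes in the cortex (47 without 952, 48 without 954, 56 without 957, 31 without 958, 51 without 961), 2 to 11 in the hippocampus (2 without 952 or 957, 4 without 958, 5 without 953, 964 or 966, 6 without 954, 955 or 961) and 4 to 16 in the retina (4 without 952, 954, 958, 964 or 966, 15 without 960, 16 without 963). For the list it gave 0 to 1 calls in the cortex, 0 to 2 in cortex females, 0 to 1 for the retina lower than the hippocampus and 4 to 8 by sex in the hippocampus. With all animals kept, 0.606%, 0.375%, 21.9% and 17.7% of all genes were called in the same order. Genes whose effect differed between tissues numbered 2 to 6. No value that passed its test changed direction, but values near 0 did. Leaving out 1 animal moved the tamoxifen estimate of Atf4 from -0.0382 to 0.0098 in cortex and from -0.0768 to 0.0071 in hippocampus, of Ddit3 from -0.0807 to 0 in cortex and from -0.1535 to 0.0025 in hippocampus, of Atf3 from -0.2604 to 0.0902 in cortex, of Ern1 from -0.0625 to 0.0817 in retina, and of Sesn2 from -0.0360 to 0.0386 in cortex, -0.0243 to 0.0798 in hippocampus and -0.0771 to 0.0195 in retina. The difference of Manf between hippocampus and cortex ran from -0.0316 to 0.0341, and was 0.0299 with no filter. Without the libraries rich in other transcripts, Ddit3 in the hippocampus was at 0.0234. Without the 2 farthest libraries, r of Asns with Trib3 was 0.178 in cortex and 0.125 in hippocampus, and with Chac1 -0.311 in cortex and -0.163 in retina. With the animal as a replicate block, the Hspa5 difference between retina and cortex was -0.13, beside -0.13 (adjusted p = 0.0195) without it, and the block moved no count of calls between tissues. Depth limits Trib3 and Derl3, with as few as 2 counts in a library.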
